A study of Mus musculus with 22 samples.

Results

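The comparison set 9 arrays of liver samples from mice given diethylnitrosamine (DENA) and then TCPOBOP against 3 arrays of liver samples from vehicle controls. These 12 arrays were chosen by their sample titles from the 22 arrays of the study. All mice were female C3H mice. The 9 samples came from mice injected once with DENA at 90 mg/kg, left to recover, and then given TCPOBOP by stomach tube at 3 mg/kg each week for 28 weeks. The 3 controls had received the solvent, DMSO in corn oil, and no DENA or TCPOBOP. They were matched for age, but the labels used here do not give the age of each. A further 3 samples from mice given only TCPOBOP for 28 weeks, and 7 given only TCPOBOP for 42 weeks, are used here to show where the values after DENA plus TCPOBOP differ. The labels report hepatocellular carcinomas at these times under both regimens, and RNA from microdissected tissue, but not which of the samples were tumour or how many mice they came from. Should several arrays come from 1 mouse, the spread on which the p-values rest would be partly technical and the p-values too low. The title of the controls holds only an abbreviation, which was read as the vehicle group.

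TCPOBOP activates the constitutive androstane receptor (CAR), a nuclear receptor that switches on drug-metabolising enzymes and transporters in hepatocytes and makes mouse liver grow without damaging DNA. DENA is converted by cytochrome P450 enzymes in hepatocytes to a form that alkylates DNA, and serves as a tumour initiator. In normal liver, hepatocytes near the central vein run a gene programme that depends on β-catenin, the effector of Wnt signals, and hepatocytes near the portal vein carry most amino acid breakdown and glucose production. Both programmes, the antioxidant programme of the transcription factor NRF2, and genes of the fetal liver are often altered in liver tumours.

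The values are log2 bead signals after normalization, on which a difference of 1 is a 2-fold difference. A signal was called detected when its detection p was under 0.05, and the dimmest detected signals lay near 5.01 to 5.18 on these 12 arrays. The scale ends near 15.5, so differences of the brightest genes are compressed. Background correction widens the differences of dim genes. Without it the folds of the 127 called genes named here were 0.62 of those given at the median, and for 69 of them smaller by over 1.5 times, with no change of direction. Bounds ("at least") are for background-corrected signals and are given without the correction as well. Between 38.0% and 41.8% of the 45281 probes were detected on each array, with means of 40.5% ± 1.34 (SD, n = 9) after DENA plus TCPOBOP and 40% ± 1.74 (SD, n = 3) in the controls (two-sided exact permutation test, p = 0.555). A gene was tested when a probe was detected on at least 3 of the 12 arrays, which left 11131 genes. A gene silent in the controls therefore entered only through the DENA plus TCPOBOP arrays and had to differ from the controls. For each gene the level is given on the 3 controls in the order of their numbers, then as the lowest, median and highest of the 9 DENA plus TCPOBOP arrays. The change is the mean of the 9 minus the mean of the 3 with its SE, and the adjusted p is from limma with Benjamini-Hochberg adjustment over all genes tested. Genes are called higher or lower when that p is under 0.05.

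The samples had the markers of liver. The hepatocyte genes Apoa1, Ttr and Ahsg, which encode secreted plasma proteins, were between 14.58 and 15.33 on all 12 arrays. They lay near the top of the scale, where a difference would be compressed. Of the 18 hepatocyte markers 15 were not called (16.7% called, beside 28.7% of all genes). Of the 18, albumin (Alb) had the value 13.83, 13.90 and 13.91 on the controls and 12.02, 12.99 and 13.71 after DENA plus TCPOBOP. Its change of -0.95 ± 0.29 (adjusted p = 0.0156) was not past the threshold without control replicate 2 or 3 (adjusted p = 0.0576 and 0.0597). Xist, which is expressed from the inactive X chromosome of female cells, was at 10.29, 11.13 and 10.60 on the controls and 9.94, 10.45 and 11 after DENA plus TCPOBOP. In whole tissue, fewer cells of a type and less RNA per cell cannot be told apart, which holds for every level given here. The arrays lay on 4 slides. Slide 3 held control replicate 2 with DENA plus TCPOBOP replicates 3 to 6, and slide 4 held control replicate 3 with replicates 7 to 9. Slide 1, with replicates 1 and 2, held no control, and slide 2, with control replicate 1, held no DENA plus TCPOBOP array.

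DENA plus TCPOBOP was followed by a broad change in liver RNA. Of the 11131 genes, 3192 (28.7%) were called, 1471 higher (13.2%) and 1721 lower (15.5%). The 9 arrays all lay above the 3 controls for 1168 genes (10.5%) and all below them for 1392 genes (12.5%), and 2325 genes were both called and free of overlap. The median change was -0.02 over all genes, 1.07 over the genes called higher and -0.99 over those called lower. At least 3 log2 units separated the means of 126 genes called higher and 91 called lower. Within slide 3 alone 99.9% of the called genes kept the direction of their change, and within slide 4 alone 99.8%. The arrays of these slides took part in the calls, so much of this agreement was fixed by the selection. A fit on slides 3 and 4 alone, with slide as a block, kept 62.6% of the calls. On a principal component analysis of the 12 arrays the first component took 52.2% of the variance and put the controls at -75.9 to -72.5. Replicate 6 lay at -4.41, between the controls and the other 8 DENA plus TCPOBOP arrays, which were at 17.1 to 38.8. Over the called genes the change on replicate 6 was 0.74 of the fitted change at the median, against 0.92 to 1.13 on the other 8 arrays. With replicate 6 left out, 3347 genes were called.

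**Figure D1:**
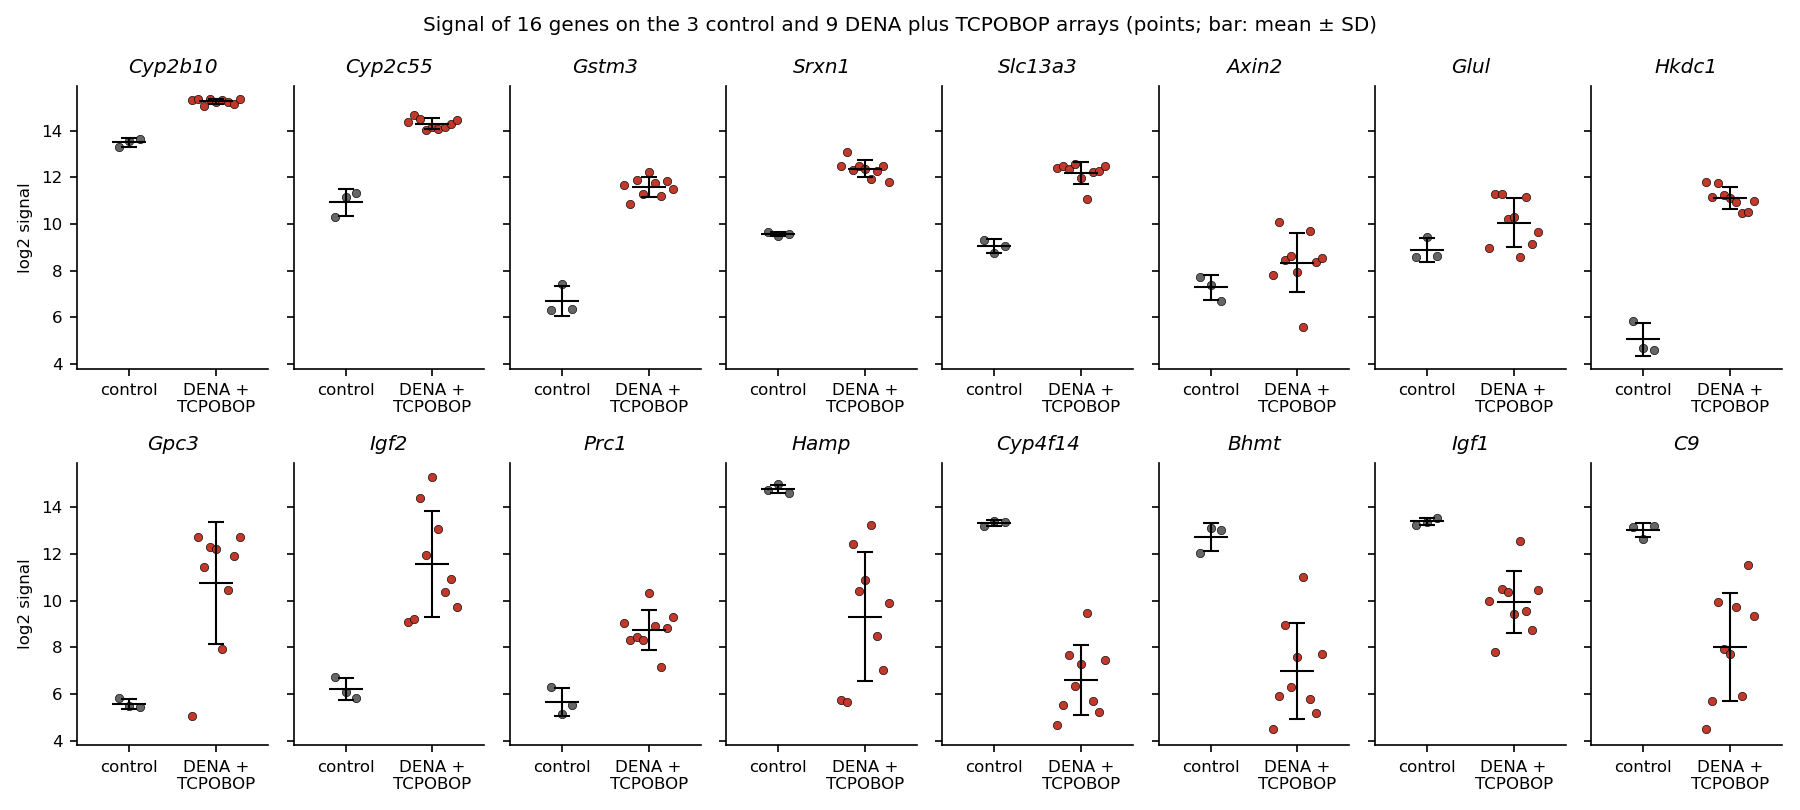
Log2 signal of 16 genes on each of the 12 arrays (points), with the mean and SD of each group (bar and error bar) for the 3 controls and the 9 DENA plus TCPOBOP arrays. Induced genes such as Cyp2b10, Gstm3 and Hkdc1 form 2 separate groups with little spread, while Gpc3, Igf2, Hamp and Bhmt differ widely among the 9 arrays, and Axin2 and Glul overlap the controls.

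Enzymes and transporters that CAR induces were higher after DENA plus TCPOBOP. Of 45 measured members of a list of 50, 28 were called higher and 4 lower (2 lower under the stricter filter on dim probes, which tests fewer genes), with a median change of 1.05 beside -0.02 for all genes. Cyp2b10, the cytochrome P450 that serves as the standard readout of CAR in mouse liver, was at 13.29, 13.57 and 13.63 on the controls and at 15.05, 15.31 and 15.35 after DENA plus TCPOBOP. Every array of the second group lay above every control, close to the top of the scale, and the change was 1.76 ± 0.13 (adjusted p = 3.37e-10), which is compressed there. The mean over its probes, of which the brightest is used here, gave 2.62. For Cyp2c55, another cytochrome P450 induced by CAR agonists, the controls read 10.29, 11.17 and 11.34 and the DENA plus TCPOBOP arrays 14.03, 14.27 and 14.68. These groups were also apart, with a change of 3.37 ± 0.21 (adjusted p = 1.97e-11). Gstm3, a glutathione S-transferase that joins glutathione to reactive compounds, rose from 6.32, 7.45 and 6.35 to 10.87, 11.68 and 12.24. It had the largest change of the list, 4.88 ± 0.25 (adjusted p = 1.57e-12), with no overlap. Among transporters, the efflux pump Abcc4 went from 7.95, 8.67 and 8.74 to 11.38, 12.43 and 12.89, a change of 3.94 ± 0.26 (adjusted p = 8.45e-11). Abcc2, the pump that carries conjugates into bile, changed by 1.87 ± 0.25 (adjusted p = 4.74e-06). The stress gene Gadd45b, which CAR agonists induce early in mouse liver, was at 5.07, 5.65 and 5.35 on controls and 8.76, 9.89 and 11.75 after DENA plus TCPOBOP. It too had no overlap, and changed by 4.53 ± 0.41 (adjusted p = 1.18e-08). Probes of close relatives in the Gst, Cyp2b, Cyp2c, Ces, Mup, Sult, Hamp and Bglap families can cross-hybridise, so each of these names may stand for several genes.

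The receptor itself and a sulfotransferase went the other way. Nr1i3, which encodes CAR, was at 12.30, 12.12 and 12.06 on the controls and 10.82, 11.47 and 11.99 after DENA plus TCPOBOP. Its 2 groups did not overlap and it changed by -0.82 ± 0.27 (adjusted p = 0.0231), but with control replicate 1, 2 or 3 left out the adjusted p was 0.0977, 0.0662 or 0.0573. Sult5a1 read 7.68, 6.74 and 7.07 on the controls and was detected on none of the 9 DENA plus TCPOBOP arrays. It was at least 4.28-fold lower there (1.91-fold without background correction, adjusted p = 1.66e-08), with measured means of 7.16 and 4.70. After TCPOBOP alone, set against the same 3 controls, the median of the CAR list was 1.09 at 28 weeks and 1.02 at 42 weeks. Against 28 weeks of TCPOBOP alone, 4 members were called higher and 6 lower after DENA plus TCPOBOP, beside 13.9% of all genes called in either direction.

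Genes of the antioxidant programme of NRF2, which binds antioxidant response elements in DNA, were higher. Of 28 measured members of a list of 32, 21 were called higher and 1 lower, with a median change of 1.63. Some members, Gstm3 and Abcc4 among them, are also on the CAR list, so the counts of these 2 lists are not independent. After TCPOBOP alone, set against the same 3 controls, the median of the NRF2 list was 0.78 at 28 weeks and 1.56 at 42 weeks. After DENA plus TCPOBOP its median was 1.5 within slide 3 and 1.58 within slide 4. The largest change was that of Aldh3a1, an aldehyde dehydrogenase, with 5.29, 4.45 and 4.48 on the controls and 7.10, 10.15 and 12.35 after DENA plus TCPOBOP. There was no overlap, and the change was 5.14 ± 0.72 (adjusted p = 1.15e-05). Gpx2, a glutathione peroxidase, was detected on none of the controls (4.84, 4.87 and 4.68) and on all 9 DENA plus TCPOBOP arrays (6.02, 9.49 and 11.62), spread over more than 5 log2 units. It was at least 20.4-fold higher (7.02-fold without background correction, adjusted p = 0.00232), with measured means of 4.80 and 9.43. Gsta1 and Gsta2, alpha class glutathione S-transferases, changed by 3.60 ± 0.40 and 3.68 ± 0.42 (adjusted p = 3.02e-07 and 6.44e-07).

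Another 4 members of this list were picked after their values were seen, because their promoters hold letters like those of the antioxidant response element. Srxn1 encodes sulfiredoxin, which repairs oxidised peroxiredoxins. Its controls read 9.67, 9.49 and 9.58 and the DENA plus TCPOBOP arrays 11.82, 12.36 and 13.09, far apart, with a change of 2.78 ± 0.27 (adjusted p = 5.78e-08). Gstp1, a glutathione S-transferase of the pi class, was at 11.86, 12.74 and 12.29 on the controls and 13.73, 14.12 and 14.48 after DENA plus TCPOBOP. Its groups did not overlap and the change was 1.85 ± 0.27 (adjusted p = 1.49e-05). Ugdh, which makes the glucuronic acid donor for conjugation, was at 4.93, 5.81 and 5.41 on controls and 7.21, 7.63 and 8.11 after DENA plus TCPOBOP, a change of 2.23 ± 0.21 with no overlap (adjusted p = 3.03e-08). Gclm, the modifier subunit of the enzyme that starts glutathione synthesis, had the smallest change of these, from 11.30, 11.40 and 11.26 to 11.88, 12.34 and 12.66. It changed by 0.99 ± 0.21 (adjusted p = 0.00115), again with no overlap.

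Their promoters, from 250 bases before to 50 bases after the gene's start in RefSeq on GRCm38.p6, are shown 5′ to 3′ on the gene's strand. Capitals mark matches on either strand to the core letters TGACNNNGC or TGAGNNNGC. Srxn1 lies at chr2:152105274-152105573 on the plus strand, Gstp1 at chr19:4037863-4038162 on the minus strand, Ugdh at chr5:65435793-65436092 on the minus strand and Gclm at chr3:122245307-122245606 on the plus strand.
Srxn1: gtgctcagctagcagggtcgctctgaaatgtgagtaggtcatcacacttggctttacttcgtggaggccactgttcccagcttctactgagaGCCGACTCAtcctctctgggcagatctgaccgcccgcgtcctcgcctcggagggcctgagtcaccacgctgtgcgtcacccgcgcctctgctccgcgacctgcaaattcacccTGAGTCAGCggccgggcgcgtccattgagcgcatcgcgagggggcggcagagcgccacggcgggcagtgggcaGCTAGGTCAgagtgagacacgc
Gstp1: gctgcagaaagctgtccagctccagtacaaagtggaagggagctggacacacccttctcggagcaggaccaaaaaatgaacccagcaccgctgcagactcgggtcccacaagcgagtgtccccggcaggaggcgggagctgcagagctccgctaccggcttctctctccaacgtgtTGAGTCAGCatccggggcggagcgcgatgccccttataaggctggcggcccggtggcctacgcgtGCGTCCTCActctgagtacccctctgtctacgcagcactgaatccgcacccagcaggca
Ugdh: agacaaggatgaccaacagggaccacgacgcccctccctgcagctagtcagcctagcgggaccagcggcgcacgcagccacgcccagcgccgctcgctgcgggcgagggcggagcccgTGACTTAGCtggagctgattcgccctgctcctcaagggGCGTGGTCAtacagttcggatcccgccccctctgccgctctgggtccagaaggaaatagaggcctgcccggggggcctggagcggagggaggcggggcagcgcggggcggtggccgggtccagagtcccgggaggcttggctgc
Gclm: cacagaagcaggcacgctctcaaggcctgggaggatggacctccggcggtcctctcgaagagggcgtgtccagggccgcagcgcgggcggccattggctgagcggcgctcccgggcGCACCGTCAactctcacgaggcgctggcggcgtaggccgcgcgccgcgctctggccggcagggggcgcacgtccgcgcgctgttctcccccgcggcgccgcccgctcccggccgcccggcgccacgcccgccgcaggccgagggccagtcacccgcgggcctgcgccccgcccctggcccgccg
The Srxn1 window holds 3 matches, the Gstp1 and Ugdh windows 2 each and the Gclm window 1. The letters TGAGTCAGC, found in Srxn1 and Gstp1, also hold TGAGTCA, the site of the AP-1 factors. Such matches are frequent: 35% of the 8997 tested genes with a window had one, and 38.0% of the 1179 genes called higher. Of the 18 NRF2 list members called higher that have a window, 7 had a match, so the match describes these promoters and is no sign of binding.

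Few genes of the central-vein programme that depends on β-catenin were called. Of 21 measured β-catenin targets of a list of 26, 4 were called higher and none lower, with a median change of 0.26. This count of 4 (19% of the members) lies near the share of all genes called higher (13.2%), and was 7 with array weights. Ctnnb1, which encodes β-catenin, was at 11.93, 12.21 and 11.96 on the controls and 11.44, 11.76 and 12.14 after DENA plus TCPOBOP, which overlapped (change -0.21 ± 0.18, adjusted p = 0.414). Axin2, a feedback inhibitor of the pathway and its most direct readout, was at 7.75, 7.39 and 6.71 on the controls and 5.58, 8.46 and 10.07 after DENA plus TCPOBOP. Of the 9 arrays 8 lay above all controls and replicate 6, at 5.58, below all of them. The change of 1.07 ± 0.57 was not past the threshold (adjusted p = 0.173), and without replicate 6 it was 1.42 (adjusted p = 0.0116). Glul, glutamine synthetase of the innermost ring of hepatocytes, had 8.57, 9.47 and 8.61 on the controls and 8.57, 10.20 and 11.30 after DENA plus TCPOBOP. It overlapped the controls as well, with a change of 1.18 ± 0.59 (adjusted p = 0.141). The stem cell receptor Lgr5 changed by 0.36 ± 0.39 and the transcription factor Tbx3 by 0.26 ± 0.39 (adjusted p = 0.534 and 0.659), and neither was called.

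The 4 members called higher were Slc13a3, Slc1a4, Tnfrsf19 and Myc. Slc13a3, a dicarboxylate transporter, stood at 9.34, 8.75 and 9.07 on the controls and 11.05, 12.35 and 12.56 after DENA plus TCPOBOP. All 9 arrays were above the controls, and the change was 3.14 ± 0.28 (adjusted p = 8.78e-09). Tnfrsf19, a receptor of the TNF family, rose by 2.04 ± 0.28 and Slc1a4, a neutral amino acid transporter, by 2.09 ± 0.46 (adjusted p = 8.88e-06 and 0.00145). Myc was not detected on the controls and was at least 1.36-fold higher (1.11-fold without background correction, adjusted p = 0.0296; means 4.63 and 5.53). Its call was lost without control replicate 1, 2 or 3 (adjusted p = 0.0730, 0.133 and 0.0631). On the 9 arrays these targets did not move alike. Replicates 2 and 7 held the 2 highest signals of Axin2, Lgr5 and Tbx3, and of Sp5 and Notum, a transcription factor and a Wnt inhibitor that were picked after their values were seen. Replicate 6 held the lowest signal of Axin2, Lgr5, Sp5, Notum and Glul. With replicate 6 left out Sp5 was called too, at 1.63 (adjusted p = 0.0239), against 1.21 ± 0.72 with it (adjusted p = 0.224). Sp5 ran from 5.34 on replicate 6 to 10.55 on replicate 7, around control values of 7.77, 7.95 and 6.78, and Notum from 5.83 to 9.89, around 8.73, 8.68 and 8.26.

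Genes of central-vein hepatocytes, a list that overlaps the β-catenin targets, were called about as often as all genes, and in both directions. Of 17 measured on a list of 20, 4 were called higher and 1 lower (29.4% called, beside 28.7% of all genes). Cyp1a2 read 13.20, 13.43 and 13.32 on the controls and 14.31, 15.13 and 15.34 after DENA plus TCPOBOP, a change of 1.74 ± 0.19 with no overlap (adjusted p = 1.92e-07). Cyp2e1, the enzyme that activates DENA, was at 15.51, 14.85 and 14.77 and 14.37, 15.24 and 15.41, with a change of 0.08 ± 0.20 near the top of the scale (adjusted p = 0.798). The receptor Ahr rose by 1.48 ± 0.29, Csad, which makes the taurine precursor hypotaurine, by 2.73 ± 0.50, and Lhpp by 1.81 ± 0.41 (adjusted p = 0.000475, 0.000235 and 0.00180). The member called lower was Cyp7a1, the rate-limiting enzyme of bile acid synthesis, at -1.29 ± 0.42 (adjusted p = 0.0255), whose adjusted p was 0.0948, 0.0749 and 0.0663 without control replicate 1, 2 and 3.

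Genes of the fetal liver and of liver tumours were higher, several of them unevenly. Of 24 measured members of a list of 36, 16 were called higher and 1 lower, with a median change of 2.87. Glypican-3 (Gpc3), a cell surface proteoglycan of fetal liver and hepatocellular carcinoma, was at 5.83, 5.47 and 5.42 on the controls and 5.04, 11.91 and 12.72 after DENA plus TCPOBOP. Replicate 1, at 5.04, was no higher than the controls, replicate 6 was at 7.92, and the other 7 arrays lay between 10.4 and 12.7. The change was 5.16 ± 1.12 (adjusted p = 0.00127). Igf2, the growth factor of fetal liver, was at 6.73, 6.07 and 5.84 on the controls and 9.07, 10.91 and 15.27 after DENA plus TCPOBOP, with no overlap. Its highest signals were on replicate 5 (15.27) and replicate 3 (14.41), its lowest on replicates 1 and 2, and it changed by 5.33 ± 1.16 (adjusted p = 0.00125). Alpha-fetoprotein (Afp) had 6.50, 4.65 and 4.63 on the controls and 6.42, 8.46 and 10.20 after DENA plus TCPOBOP, which overlapped at the low end. Its change was 3.06 ± 0.65 (adjusted p = 0.00105). Ly6d, a surface protein, rose from 6.88, 5.22 and 4.55 to 8.75, 11.89 and 13.47 with no overlap (change 5.98 ± 0.81, adjusted p = 6.31e-06). Lipoprotein lipase (Lpl), made by fetal but little by adult hepatocytes, changed by 2.35 ± 0.23 and Prom1, a progenitor surface protein, by 2.38 ± 0.40 (adjusted p = 6.10e-08 and 9.06e-05).

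The largest change of the oncofetal list was even across arrays. Hkdc1, a hexokinase that adult liver hardly expresses, was at 5.86, 4.70 and 4.62 on the controls and 10.47, 11.12 and 11.79 after DENA plus TCPOBOP. It did not overlap and changed by 6.05 ± 0.31 (adjusted p = 1.33e-12), and it is also one of 9 members of the glycolysis list called higher. Genes of no list were among the largest rises as well. Tmprss7, a membrane serine protease, had 5.58, 4.70 and 4.71 and 10.62, 10.92 and 11.28, a change of 5.97 ± 0.23 (adjusted p = 7.72e-15) with less than 1 log2 unit between the lowest and highest of the 9. Ptges, which makes prostaglandin E2, went from 5.20, 4.92 and 4.55 to 10.06, 10.59 and 11.28, also with no overlap (change 5.78 ± 0.27, adjusted p = 1.48e-13). Sidt1, a membrane protein of the SID1 family, changed by 6.32 ± 0.34 and Sdcbp2, a syntenin, by 5.38 ± 0.56 (adjusted p = 2.58e-12 and 1.24e-07). Pnliprp1, a lipase-related protein of the pancreas, read 10.65, 9.53 and 6.25 on the controls and 14.83, 15.09 and 15.18 after DENA plus TCPOBOP. Its change of 6.25 ± 0.47 (adjusted p = 7.21e-10) is compressed by the top of the scale. Of 21 markers of fat, muscle and pancreas 4 were measured, and the pancreatic elastase Cela2a was at 4.56, 5.52 and 4.59 on controls and 4.76, 5.23 and 5.50 after DENA plus TCPOBOP; the part of other tissue in the Pnliprp1 signal was not tested.

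Some genes were detected on no control and on all 9 DENA plus TCPOBOP arrays. There were 94 of them, and 89 were called higher, by at least 1.41-fold to at least 66.6-fold, with a median bound of 4.81-fold. Without background correction these bounds ran from 1.12-fold to 19.1-fold with a median of 2.12-fold. They had to be higher by the way they were selected, and 52 of the 89 were also detected on all 3 arrays after 28 weeks of TCPOBOP alone and 71 on all 7 after 42 weeks. Chil1, a secreted chitinase-like protein, had the highest bound, with 5.01, 4.79 and 4.62 on the controls and 8.56, 11.15 and 13.52 after DENA plus TCPOBOP. It was at least 66.6-fold higher (19.1-fold without background correction, adjusted p = 7.01e-07; means 4.81 and 11.14). Ptpn14, a phosphatase that binds the growth regulator YAP, was at 4.60, 4.81 and 4.51 and 9.95, 11.15 and 11.86, at least 61.2-fold higher (17.3-fold without background correction, adjusted p = 3.24e-12; means 4.64 and 11.02). Its probes were unequal, and their mean changed by 3.08 on the log2 scale. Bglap2, one of the mouse genes for the bone protein osteocalcin, was at least 45-fold higher (13.3-fold without background correction, adjusted p = 5.03e-07; means 4.69 and 10.58). The bounds were 34.9-fold for the oestrogen sulfotransferase Sult1e1, 24.0-fold for the sodium-glucose transporter Slc5a1, 25.1-fold for the sodium, potassium and chloride transporter Slc12a1 and 25.4-fold for the protease inhibitor Slpi (adjusted p = 2.59e-11, 1.65e-11, 0.000116 and 1.37e-06). Without background correction they were 10.2, 7.25, 8.34 and 7.90-fold. Their means went from 4.72, 4.85, 4.61 and 4.77 to 10.21, 9.67, 9.74 and 9.75. Slc12a1 was uneven, from 5.57 to 11.96 on the 9 arrays, and the mean of its probes changed by 2.61, while Slc5a1 ran only from 8.95 to 10.33.

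Most mitotic genes were higher. Of 28 measured mitotic genes on a list of 42, 18 were called higher and 1 lower, with a median change of 1.18. The count was 11 without control replicate 1 and 10 without control replicate 2. Prc1, which organises the central spindle, was at 6.30, 5.15 and 5.51 on the controls and 7.16, 8.84 and 10.32 after DENA plus TCPOBOP. It did not overlap and changed by 3.08 ± 0.48 (adjusted p = 4.38e-05), the largest change of the list. The checkpoint activator Cdc20 changed by 2.70 ± 0.44, the kinase Pbk by 2.51 ± 0.50 and the cyclin-dependent kinase Cdk1 by 2.22 ± 0.47 (adjusted p = 7.14e-05, 0.000566 and 0.00103), and none of them overlapped. Of 29 measured replication genes of 35 listed, 12 were called higher and 3 lower. Mcm2, a subunit of the replicative helicase, rose from 5.42, 5.86 and 5.85 to 7.41, 7.87 and 8.50 with no overlap (change 2.12 ± 0.22, adjusted p = 9.38e-08). Uhrf1, which keeps DNA methylated through replication, changed by 2.69 ± 0.36 and the transcription factor E2f1 by 2.23 ± 0.25 (adjusted p = 4.54e-06 and 5.33e-07). The probe of Mcm10, a replication initiation factor, went against them, from 11.81, 11.89 and 11.98 to 7.56, 8.78 and 9.53 (change -3.37 ± 0.41, adjusted p = 1.36e-06).

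Inhibitors of the cell cycle were called less evenly. Of 24 measured cell cycle inhibitors and p53 targets of 31 listed, 7 were called higher and 3 lower (41.7% called, beside 28.7% of all genes). Without control replicate 3 only 3 were called higher. Cdkn2b, which encodes the inhibitor p15, was at 5.46, 6.36 and 5.70 on the controls and 8.54, 9.28 and 9.56 after DENA plus TCPOBOP, a change of 3.24 ± 0.25 with no overlap (adjusted p = 1.04e-09). Cdkn1a, the p53 target p21, read 6.99, 5.22 and 5.43 and 6.43, 7.05 and 9.17. Its groups overlapped, the change was 1.49 ± 0.56 (adjusted p = 0.0494), and the call was lost without control replicate 2 or 3 (adjusted p = 0.230 and 0.197) and without DENA plus TCPOBOP replicate 2, 3, 4, 5, 7 or 8 (adjusted p from 0.0521 to 0.0747). Mdm2, which degrades p53, changed by 0.63 ± 0.18 (adjusted p = 0.0126, and 0.114 without control replicate 3). Gadd45a, a stress gene, rose by 1.58 ± 0.30, and Perp, a p53 target in cell junctions, fell by 1.62 (adjusted p = 0.000302 and 0.000651). Trp53 had no kept probe. Of 24 measured DNA repair genes of 36 listed, 2 were called higher and 1 lower (12.5% called, beside 28.7% of all genes). The one that fell was Mgmt, which removes alkyl groups from guanine, with 9.71, 10.29 and 10.33 on the controls and 5.15, 6.28 and 9.62 after DENA plus TCPOBOP. All 9 arrays lay below the controls, with the highest, 9.62, on replicate 6, and the change was -3.42 ± 0.75 (adjusted p = 0.00138).

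Some immediate early genes were higher. Of 17 measured of 19 listed, 5 were called higher and 1 lower (35.3% called, beside 28.7% of all genes), and 8 were higher with array weights. Jun, a subunit of AP-1, was at 5.97, 6.48 and 5.54 on the controls and 8.03, 8.75 and 10.12 after DENA plus TCPOBOP, a change of 2.93 ± 0.31 with no overlap (adjusted p = 2.20e-07). Klf6, a transcription factor, changed by 2.38 ± 0.40 and Ier3 by 2.47 ± 0.48 (adjusted p = 0.000106 and 0.000404). Atf3, a stress-induced transcription factor, was not detected on the controls and was at least 9.79-fold higher (3.74-fold without background correction, adjusted p = 0.00316; means 4.93 and 8.38). Replicate 2 held the highest signal of Atf3 (13.19), Klf6 (14.07) and Ier3 (12.10).

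**Figure D2:**
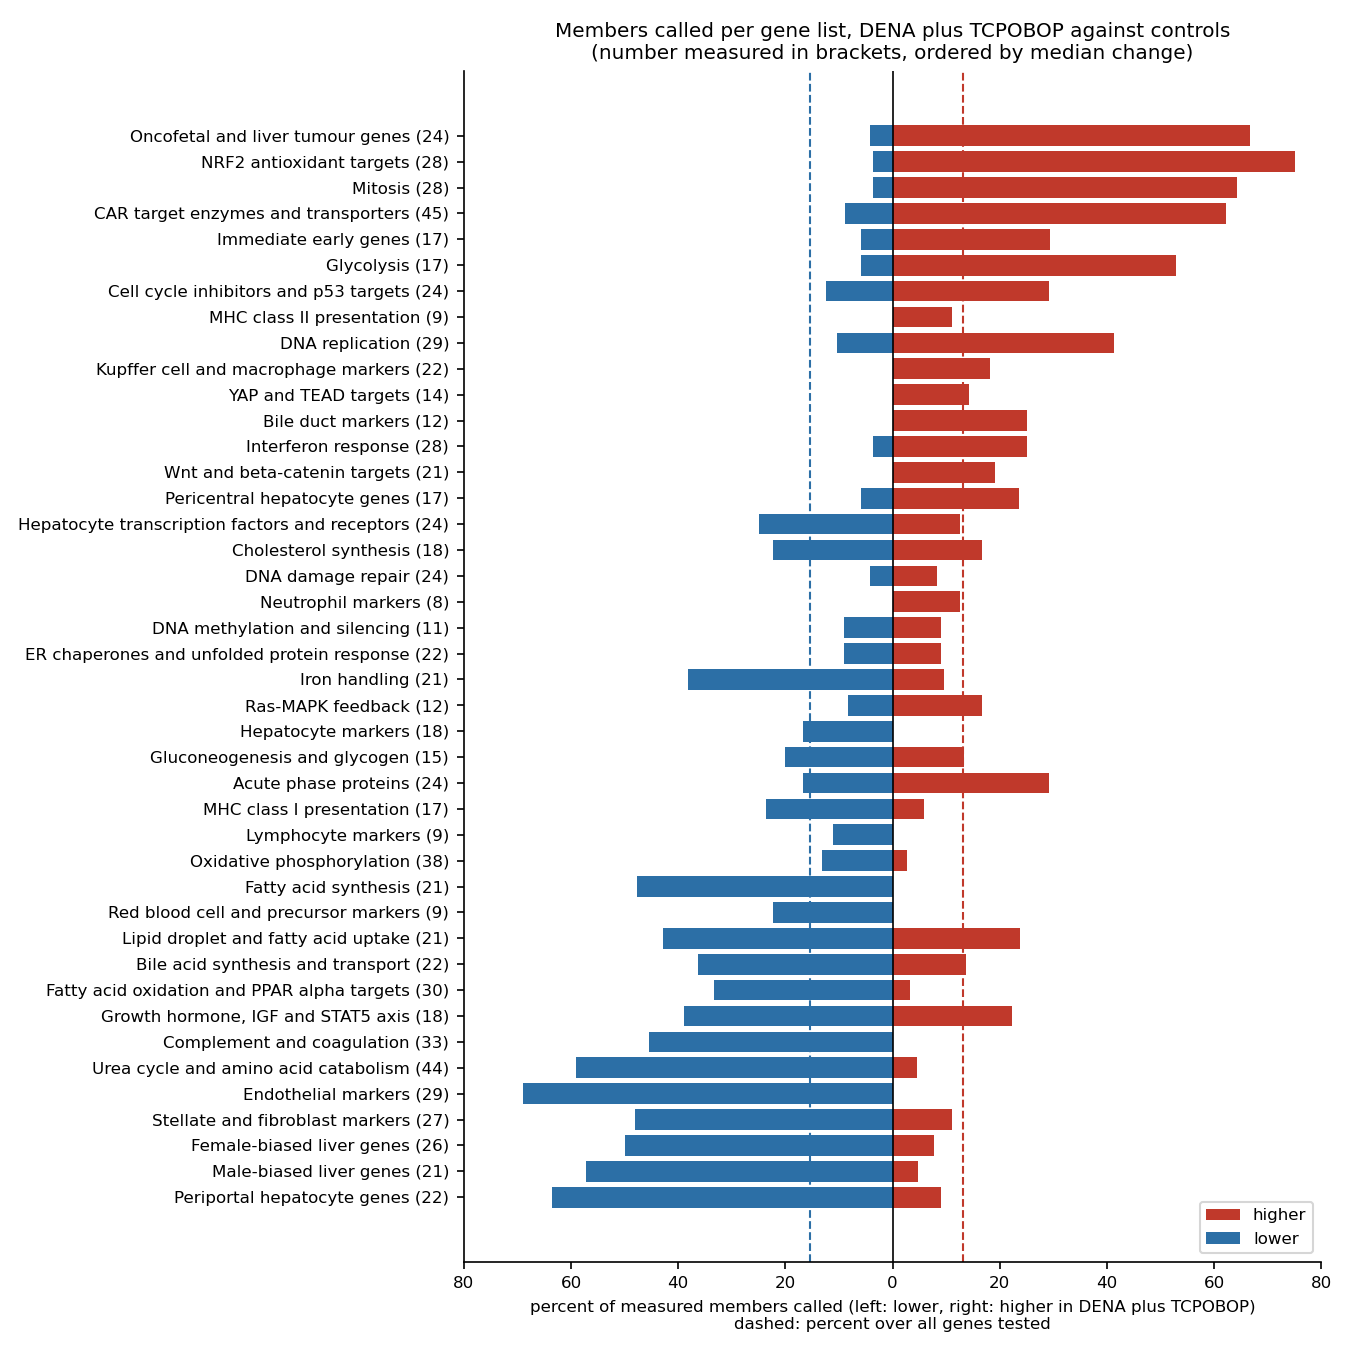
Percent of the measured members of each gene list called lower (left) and higher (right) after DENA plus TCPOBOP against controls, by limma with an adjusted p under 0.05; the dashed lines mark the same percent over all 11131 genes (15.5% lower, 13.2% higher). CAR, NRF2, oncofetal and mitotic lists reach furthest to the right, and periportal, endothelial and amino acid lists furthest to the left.

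Most genes of hepatocytes near the portal vein were lower. Of 22 measured members of a list of 27, 14 were called lower and 2 higher, with a median change of -1.96. Within slides 3 and 4 the median was -1.58 and -1.74. Cyp2f2, the cytochrome P450 that marks these cells, was at 13.96, 13.84 and 13.96 on the controls and 6.12, 8.58 and 12.37 after DENA plus TCPOBOP. All 9 arrays were lower and they spread over more than 6 log2 units (change -5.14 ± 0.89, adjusted p = 0.000141). Etnppl, which breaks down phosphoethanolamine, went from 10.55, 10.04 and 10.40 to 4.40, 5.09 and 8.36, with no overlap and most arrays near the limit of detection (change -4.86 ± 0.53, adjusted p = 2.85e-07). Cyp4f14, a fatty acid hydroxylase, had 13.18, 13.43 and 13.37 on the controls and 4.67, 6.33 and 9.48 after DENA plus TCPOBOP. It fell by 6.73 on the log2 scale (adjusted p = 5.97e-07), with no overlap.

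Most enzymes of amino acid breakdown were lower too. Of 44 measured of 48 listed, 26 were called lower and 2 higher, with a median change of -0.95. Bhmt, which remethylates homocysteine from betaine, was at 12.02, 13.12 and 13.02 on the controls and 4.49, 6.30 and 11 after DENA plus TCPOBOP. The groups did not overlap, replicate 6 was the least changed with 11, and the change was -5.73 ± 0.95 (adjusted p = 8.49e-05). Gnmt, which uses up the methyl donor S-adenosylmethionine, fell by 2.35 on the log2 scale (adjusted p = 0.000286). The histidine pathway enzymes Hal and Amdhd1 changed by -3.36 ± 0.65 and -2.25 ± 0.51 (adjusted p = 0.000427 and 0.00194), without overlap. Acmsd, which diverts tryptophan breakdown from NAD synthesis, was one of the 2 called higher, at 4.92, 5.39 and 5.44 on controls and 6.23, 7.82 and 8.23 after DENA plus TCPOBOP (change 2.37 ± 0.41, adjusted p = 0.000134). Cps1, which feeds ammonia into the urea cycle and was picked after its values were seen, read 14.73, 14.17 and 14.57 and 12.20, 14.33 and 14.86, overlapped the controls and was not called (change -0.64 ± 0.42, adjusted p = 0.272).

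About as many male-biased as female-biased liver genes were called lower. Of 21 measured male-biased genes, 12 were called lower and 1 higher, and of 26 measured female-biased genes 13 were called lower and 2 higher. Under the stricter filter on dim probes, which tests fewer genes, 8 were called lower in each list. Mup3, a major urinary protein, was at 15.13, 15.20 and 15.08 on the controls and 5.26, 9.54 and 12.78 after DENA plus TCPOBOP, with the lowest 2 signals on replicates 1 and 2. It fell by 6.13 on the log2 scale (adjusted p = 0.000670). The carboxylesterase Ces3a read 11.91, 10.75 and 11.58 and 4.78, 5.07 and 6.56 and fell by 6.15 (adjusted p = 8.45e-11), with no overlap and little spread. Of the female-biased genes, the sulfotransferase Sult2a8 was at 12.08, 12.06 and 12.38 on controls and 4.40, 4.58 and 7.10 after DENA plus TCPOBOP. Its change of -7.16 ± 0.41 (adjusted p = 5.98e-12) was shared by all 9 arrays. A1bg, a plasma protein, fell by 7.53 (adjusted p = 0.000875), but from 15.11, 15.22 and 15.46 on the controls to values spread from 4.80 to 14.16, the highest on replicate 6. Cyp3a41b, a female-specific cytochrome P450, was detected on all controls and on none of the 9 arrays, at least 24.4-fold lower (7.31-fold without background correction, adjusted p = 7.25e-15; means 9.67 and 4.53). Ntrk2, a neurotrophin receptor, fell by 4.77 (adjusted p = 2.91e-05).

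Genes of the growth hormone axis, which sets much of this sex bias, were called in both directions. Of 18 measured of 21 listed, 7 were called lower and 4 higher. Igf1, the growth factor that liver secretes under growth hormone, was at 13.25, 13.38 and 13.53 on the controls and 7.82, 9.97 and 12.55 after DENA plus TCPOBOP. It was lower on all 9 arrays (change -3.46 ± 0.61, adjusted p = 0.000173). Igfals, which holds IGF1 in the circulation, fell by 2.42 (adjusted p = 1.01e-05), and the epidermal growth factor receptor Egfr fell by 3.31 (adjusted p = 0.000141). The binding protein Igfbp1 rose from 5.39, 6.55 and 5.69 to 7.64, 9.66 and 11.30, with no overlap (change 3.81 ± 0.57, adjusted p = 2.31e-05).

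More genes were called lower than higher in each list of lipid handling. Between 36.7% and 66.7% of the measured members of a list were called, beside 28.7% of all genes. Of 21 measured fatty acid synthesis genes, 10 were called lower and none higher. The elongase Elovl5 went from 14.73, 14.75 and 14.66 to 12.12, 12.79 and 13.56 with no overlap (change -1.86 ± 0.27, adjusted p = 1.65e-05). The regulator Srebf1 fell by 1.70 and the desaturase Scd1 fell by 1.25 (adjusted p = 0.000236 and 0.00245). Of 30 measured fatty acid oxidation genes 10 were called lower and 1 higher. The lower count was 6 without control replicate 1 or 3, under median scaling and on slides 3 and 4 alone. Ppara, the receptor that drives them, fell by 1.23 (adjusted p = 0.000234). Of 21 measured lipid droplet and uptake genes 9 were lower and 5 higher, or 3 higher under median scaling. Cidec, which enlarges lipid droplets, was at 5.53, 4.65 and 4.64 on the controls and 7.47, 8.46 and 9.51 after DENA plus TCPOBOP, a change of 3.47 ± 0.37 with no overlap (adjusted p = 1.90e-07). G0s2, an inhibitor of lipid breakdown, went the other way, from 9.21, 9.83 and 9.89 to 4.68, 5.79 and 8.30 (change -3.56 ± 0.53, adjusted p = 2.11e-05). For cholesterol synthesis 3 of 18 measured genes were called higher and 4 lower (38.9% called, beside 28.7% of all genes), and 2 lower without control replicate 3. Of 22 measured bile acid genes 8 were called lower and 3 higher, but 4, 5 and 3 were lower without control replicate 1, 2 and 3, and 4 on slides 3 and 4 alone. The bile acid receptor Nr1h4 fell by 1.03 and the conjugating enzyme Baat fell by 1.45 (adjusted p = 5.97e-05 and 0.000681).

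Of 17 measured glycolysis genes 9 were called higher and 1 lower, and 5 were higher without control replicate 1, under median scaling and on slides 3 and 4 alone. Aldoa, the aldolase of muscle and of most growing cells, was at 9.84, 9.81 and 9.57 on the controls and 11.07, 11.52 and 12.44 after DENA plus TCPOBOP. It did not overlap (change 1.87 ± 0.21, adjusted p = 3.63e-07). The glucose transporter Slc2a1 changed by 1.26 ± 0.28 and overlapped (adjusted p = 0.00165). Fbp1, a key enzyme of glucose production, fell by 1.02 (adjusted p = 0.00163). The glycogen regulator Ppp1r3c fell from 12.56, 11.98 and 11.56 to 5.54, 8.42 and 11.27 (change -3.54 ± 0.73, adjusted p = 0.000804). Of 38 measured subunits of oxidative phosphorylation 5 were called lower and 1 higher (15.8% called, beside 28.7% of all genes). The lower count depended on the processing: it was 16 under cyclic loess or with array weights, 12 with slide as a fixed block, 3 under median scaling, and 3 to 9 with 1 array left out.

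Secreted proteins of the liver changed in both directions. Of 33 measured complement and coagulation genes, 15 were called lower and none higher, with a median change of -0.64. C9, the last component of the membrane attack complex, was at 13.16, 12.66 and 13.19 on the controls and 4.52, 7.92 and 11.52 after DENA plus TCPOBOP. No array reached the controls, and values fell by 4.97 log2 units at the mean (adjusted p = 0.00208). The lectin Mbl1 fell by 3.03 and coagulation factor F11 fell by 1.90 (adjusted p = 0.000425 and 0.000472). Of 24 measured acute phase genes 7 were higher and 4 lower, or 7 lower with array weights and 2 on slides 3 and 4 alone. Orm2, an acid glycoprotein, was at 11.43, 11.86 and 11.39 on the controls and 14.53, 15.07 and 15.40 after DENA plus TCPOBOP, near the top of the scale (change 3.42 ± 0.20, adjusted p = 9.94e-12). Lcn2, an iron-binding lipocalin, rose by 4.09 ± 0.86 and Saa3 by 2.32 ± 0.41 (adjusted p = 0.000982 and 0.000170), while the interleukin-6 receptor Il6ra went from 9.46, 9.23 and 9.01 to 4.84, 5.56 and 8.07 (change -3.48 ± 0.46, adjusted p = 4.48e-06).

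Hepcidin was lower, and more iron genes were called lower than higher. Hamp, which encodes hepcidin, the hormone that blocks iron release, was at 14.74, 14.98 and 14.62 on the controls and 5.65, 9.90 and 13.25 after DENA plus TCPOBOP. All 9 arrays were below the controls, from 5.65 on replicate 2 to 13.25 on replicate 6, and the change was -5.47 ± 1.28 (adjusted p = 0.00240). Hamp2, a close copy, fell by 6.38 (adjusted p = 0.00113). Id1, a target of the BMP signal that drives hepcidin, fell from 8.51, 8.64 and 8.22 to 5.27, 6.12 and 7.69 with no overlap (change -2.09 ± 0.36, adjusted p = 0.000131). The transferrin receptor Tfrc rose from 8.77, 8.31 and 9.07 to 10.51, 11.04 and 11.36 (change 2.31 ± 0.20, adjusted p = 8.89e-09), also without overlap. In all, 8 of 21 measured iron genes were called lower and 2 higher.

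Of 24 measured transcription factors of hepatocytes, 3 were called higher and 6 lower (37.5% called, beside 28.7% of all genes). Cebpa, a main factor of hepatocyte identity, fell from 8.60, 8.75 and 9.21 to 5.74, 6.95 and 8.02 (change -1.76 ± 0.38, adjusted p = 0.00112) and Prox1 from 10.19, 9.53 and 9.56 to 7.48, 8.22 and 8.50 (change -1.63 ± 0.21, adjusted p = 3.73e-06). Neither overlapped the controls.

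Most markers of the vessel wall were lower. Of 29 measured endothelial markers 20 were called lower and none higher, with a median change of -1.0, and their summed signal was 19130 to 23397 on the controls and 4879 to 13865 after DENA plus TCPOBOP. The sinusoidal scavenger receptor Stab2 was at 9.67, 9.77 and 10.02 on the controls and 6.28, 8.23 and 8.75 after DENA plus TCPOBOP, with no overlap (change -1.85 ± 0.41, adjusted p = 0.00165). Wnt2 and Rspo3, the signals through which the central vein wall feeds β-catenin in hepatocytes, changed by -2.44 ± 0.25 and -2.40 ± 0.38 (adjusted p = 1.03e-07 and 4.79e-05). Their controls read 6.87, 8.07 and 7.48 and 7.82, 7.95 and 7.93, and the DENA plus TCPOBOP arrays 4.57, 4.83 and 5.87 and 4.58, 5.27 and 6.87. Pecam1, which all endothelium carries, overlapped the controls (change -0.18 ± 0.27, adjusted p = 0.681). Of 27 measured stellate cell and fibroblast markers 13 were lower and 3 higher, and their summed signal was 33909 to 36248 on controls and 8349 to 27758 after DENA plus TCPOBOP. Lrat, which stores vitamin A in resting stellate cells, fell from 7.07, 8.02 and 8.58 to 4.85, 5.79 and 6.76 (change -2.15 ± 0.32, adjusted p = 2.69e-05) and the guidance protein Reln fell by 2.85 (adjusted p = 0.00441). Col1a1, the collagen of scar tissue, was not detected on the controls and was at least 6.36-fold higher (2.75-fold without background correction, adjusted p = 0.00458; means 4.71 and 7.76), with its highest signal, 11.34, on replicate 8. On slides 3 and 4 alone its adjusted p was 0.0726.

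Markers of immune cells gave a mixed picture. The summed signal of 22 measured Kupffer cell and macrophage markers was 7427 to 7990 on the controls and 15770 to 27400 after DENA plus TCPOBOP. Of these markers 4 were called higher and none lower (18.2% called, beside 28.7% of all genes), with a median change of 0.46. The higher count was 7 with the 12 arrays normalized and fitted alone and 9 with array weights. Lgals3, a galectin of macrophages and of tumour cells, was at 8.93, 8.65 and 8.34 on controls and 12.29, 13.07 and 13.79 after DENA plus TCPOBOP (change 4.43 ± 0.26, adjusted p = 9.94e-12). The summed signal is weighted to bright members such as Lgals3, whose part in its rise was not tested. Cd14, a lipopolysaccharide receptor subunit, changed by 2.62 ± 0.37 and the tetraspanin Cd9 by 2.04 ± 0.33 (adjusted p = 9.92e-06 and 7.45e-05). The defining Kupffer cell genes Clec4f, Vsig4 and Adgre1 changed by -1.03 ± 0.66, -0.34 ± 0.75 and -0.10 ± 0.27 and none was called (adjusted p = 0.265, 0.780 and 0.819). Lymphocyte markers were mostly dim: 9 of 30 were measured and 1 was called, Klrd1 of natural killer cells, which fell by 1.04 (adjusted p = 0.000747). This share of 11.1%, and that of 12.5% for the neutrophil markers, lay under the 28.7% of all genes. Of 8 measured neutrophil markers of 15 listed, Lcn2, which hepatocytes make too, was the 1 called, and S100a8 was at 6.06, 8.0 and 7.27 on controls and 7.67, 8.41 and 9.07 after DENA plus TCPOBOP (change 1.19 ± 0.49, adjusted p = 0.0694, and 0.0392 without control replicate 2). Of 28 measured interferon-response genes 7 were higher and 1 lower, so 28.6% were called, the same as the 28.7% of all genes. The higher count was 4 without control replicate 2 and 11 with array weights. Cxcl10, a chemokine, rose from 5.21, 4.82 and 4.97 to 6.54, 7.60 and 9.11 (change 2.75 ± 0.47, adjusted p = 0.000118) and the antiviral enzyme Oas1g by 2.87 ± 0.35 (adjusted p = 1.32e-06). Of 12 measured bile duct markers of 20 listed 3 were higher, the keratins Krt8 (1.82 ± 0.22, adjusted p = 1.37e-06) and Krt18 (1.97 ± 0.23, adjusted p = 8.58e-07), which hepatocytes also make, and Prom1. The bile duct share of 25% called lay near the 28.7% of all genes. Krt7, a keratin of ducts alone, lay near the limit of detection at 5.14, 5.0 and 5.11 on controls and 4.69, 5.17 and 5.53 after DENA plus TCPOBOP. The part of any of these cells in the changes of other genes was not tested.

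A further 31 genes were detected on all 3 controls and on none of the 9 DENA plus TCPOBOP arrays, and all 31 were called lower, as their selection required at least in direction. Their bounds ran from 1.10-fold to 24.4-fold with a median of 1.95-fold, and from 1.03-fold to 7.31-fold with a median of 1.28-fold without background correction. Besides Cyp3a41b and Sult5a1, they included the acetyltransferase Nat1, at 7.26, 6.82 and 7.37 on the controls and 4.37, 4.80 and 5.01 after DENA plus TCPOBOP and at least 4.25-fold lower (1.89-fold without background correction, adjusted p = 1.14e-09; means 7.15 and 4.76). Susd4, a membrane protein with sushi domains, was at least 2.51-fold lower (1.43-fold without background correction, adjusted p = 1.92e-07; means 6.39 and 4.59). Of the 31 genes, 13 were also detected on none of the 3 arrays after 28 weeks of TCPOBOP alone and 19 on none of the 7 after 42 weeks. Dct and Lrtm1, still detected on 1 or more arrays, had some of the largest falls. Dct, a melanin pathway enzyme, was at 12.12, 11.89 and 11.77 on the controls and 4.39, 4.63 and 6.19 after DENA plus TCPOBOP (change -7.18 ± 0.28, adjusted p = 1.15e-14), and Lrtm1 at 10.75, 10.72 and 11.33 and 4.39, 4.60 and 6.17 (change -6.15 ± 0.26, adjusted p = 6.67e-14). Neither overlapped.

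The 9 arrays differed among themselves more than the controls did. The median SD over genes was 0.35 after DENA plus TCPOBOP and 0.23 among controls. Pearson correlations over genes were 0.938 to 0.976 among the 9 arrays and 0.979 to 0.988 among the controls, and 0.882 to 0.940 between the groups, as a description over genes that are not independent. The widest genes among those called were A1bg, C9, Gpc3, Hamp, Hamp2 and Mup3. They did not rank the arrays alike. Replicate 6 had the highest signals of Hamp (13.25), Hamp2 (14.09) and A1bg (14.16), which put it nearest to the controls, while for Gpc3 it lay at 7.92 and for Igf2 at 13.06. Replicates 1 and 2 had the 2 lowest signals of Hamp, Hamp2, Mup3, C9 and Igf2, but replicate 2 had the highest Gpc3 (12.72) and replicate 1 the lowest (5.04).

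**Figure D3:**
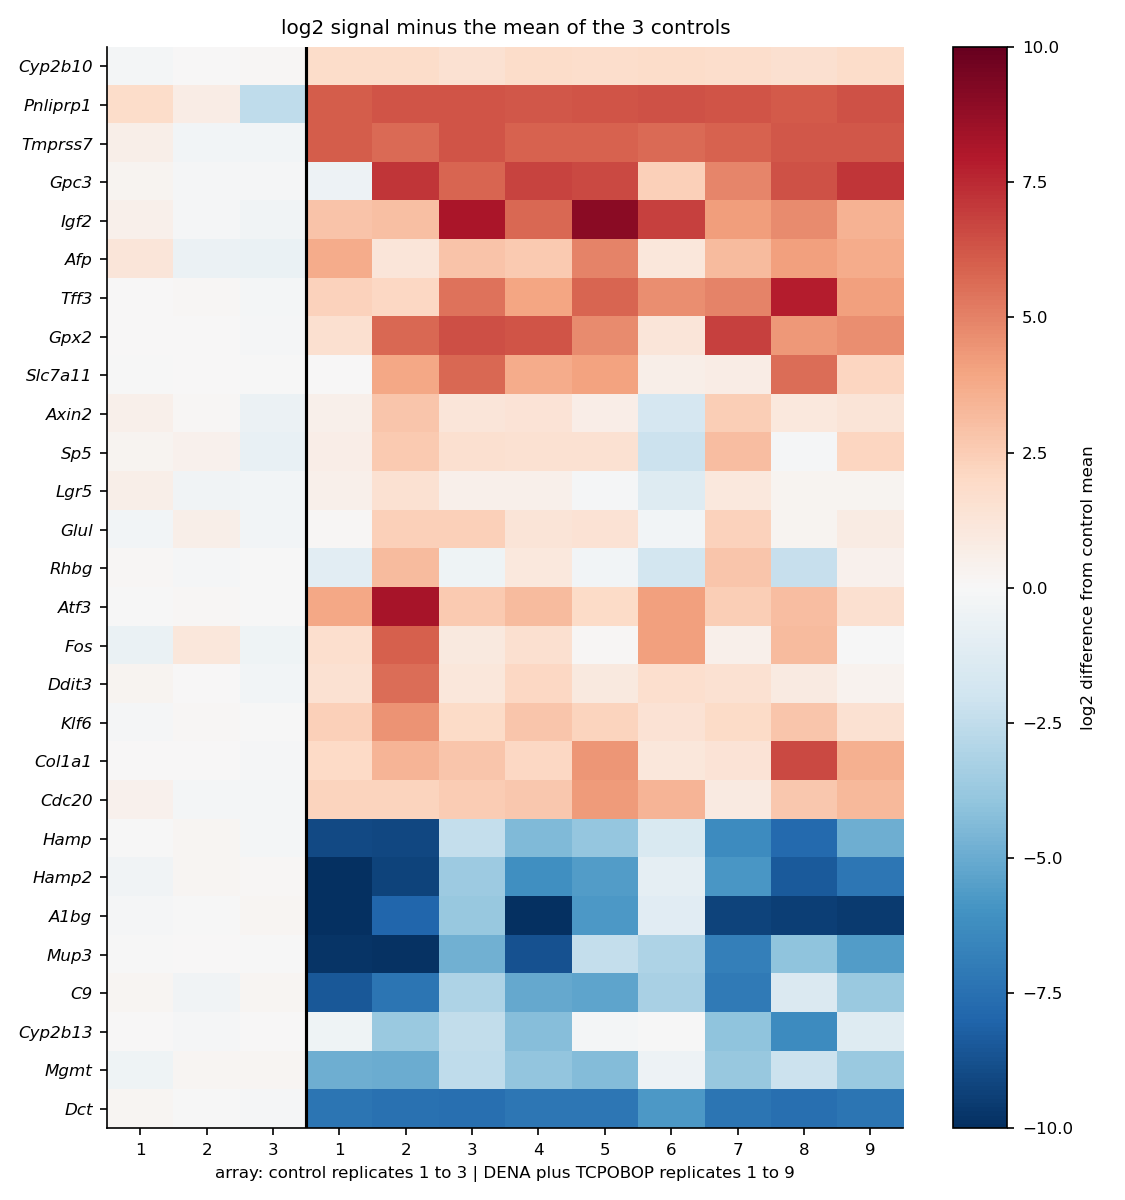
Log2 signal minus the mean of the 3 controls for 28 genes (rows) on the 3 control and 9 DENA plus TCPOBOP arrays (columns), on a colour scale from -10 to 10 beyond which the colour no longer changes. The genes were chosen after their values were seen. Cyp2b10, Pnliprp1 and Tmprss7 have a similar colour on all 9 arrays, whereas β-catenin targets, fetal genes and hepcidin differ from array to array, with replicate 6 closest to the controls for Hamp and A1bg.

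Values after DENA plus TCPOBOP were set against those after TCPOBOP alone to see where they differ. All 3 groups share the same 3 controls, so only the direct differences between them were tested. Against 28 weeks of TCPOBOP alone, the same duration without DENA, 1544 genes (13.9%) were called, 743 higher and 801 lower after DENA plus TCPOBOP, 1097 of them also called against controls. The 28-week group has only 3 arrays, and with 1 of them left out 672, 731 or 763 genes were called. Against 42 weeks 205 genes (1.84%) were called, 108 higher and 97 lower, 57 of them also called against controls. This count ran from 90 to 566 with 1 array of the 42-week group left out. With slide as a fixed block limma called 0 genes against 42 weeks, though 1125 had an unadjusted p under 0.05, beside 2201 of 11131 without the block.

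Genes of the fetal and zonal lists differed from their levels after 28 weeks of TCPOBOP alone. Of the oncofetal list 12 members were higher than after 28 weeks and none lower. Gpc3 changed against controls by 5.16 ± 1.12 after DENA plus TCPOBOP, by -0.55 at 28 weeks and by 4.43 at 42 weeks of TCPOBOP alone. Its difference from 28 weeks was 5.71 (adjusted p = 0.00195) and from 42 weeks 0.73 (adjusted p = 0.667). For Igf2 the 3 changes were 5.33 ± 1.16, 0.78 and 3.79, with a difference of 4.55 from 28 weeks (adjusted p = 0.0113, and 0.0702 without replicate 1 of the 28-week group). Igfbp1 differed from 28 weeks by 4.20 (adjusted p = 6.50e-05) and Bglap2, detected on 2 of those 3 arrays, by 4.67 (adjusted p = 9.56e-05). Of the β-catenin targets 11 were higher than after 28 weeks and none lower. Axin2 changed by 1.07 ± 0.57, -1.67 and 0.30 in the 3 comparisons with controls, and Glul by 1.18 ± 0.59, -1.80 and -0.42. Their differences from 28 weeks, 2.74 and 2.98 (adjusted p = 0.00292 and 0.00200), thus came with levels below the controls in the 28-week group and no call against the controls after DENA plus TCPOBOP.

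Portal-vein and cell-type markers went the other way. Of the periportal list 8 members were lower than after 28 weeks and 1 higher. Cyp2f2 changed by -5.14 ± 0.89 after DENA plus TCPOBOP, -0.21 at 28 weeks and -5.11 at 42 weeks, a difference of -4.93 from 28 weeks (adjusted p = 0.000998). Hamp2 differed from 28 weeks by -5.82, Mup3 by -5.59 and the carboxylesterase Ces1f by -5.09 (adjusted p = 0.00686, 0.00479 and 0.000490). Of the endothelial markers 14 were lower than after 28 weeks and none higher, and of the stellate markers 10 lower and 1 higher. Of the 45 measured CAR targets 4 were higher and 6 lower than after 28 weeks. Cyp2b10 differed by 0.10 (adjusted p = 0.634, SE 0.13) and Cyp2c55 by -0.05 (adjusted p = 0.895, SE 0.21) from 28 weeks. Cyp2b10 lies near the top of the scale, where a difference between induced groups would be compressed.

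**Figure D4:**
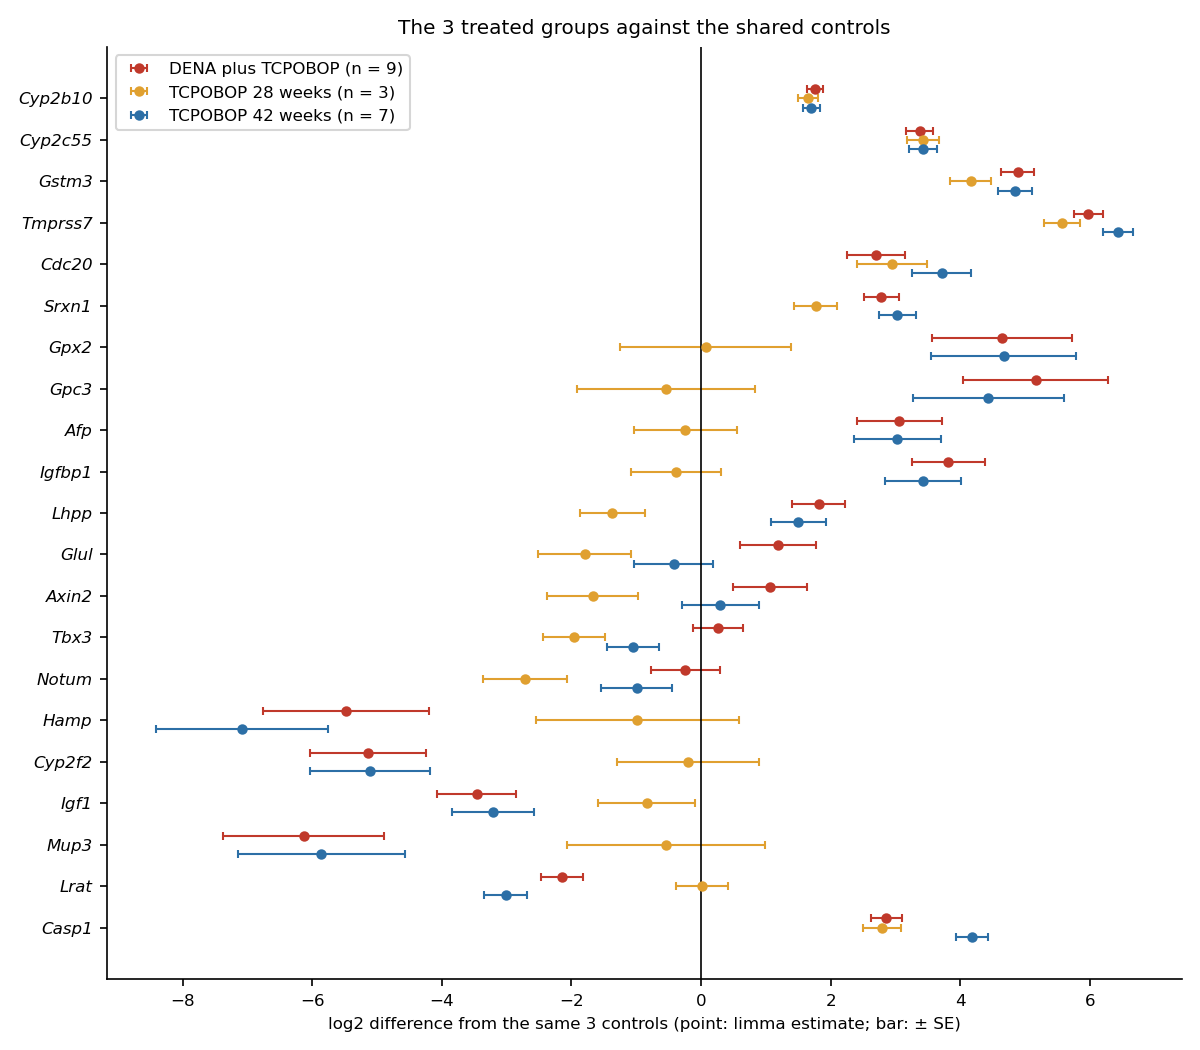
Log2 difference from the same 3 controls, with its SE from limma, for 21 genes after DENA plus TCPOBOP (9 arrays), 28 weeks of TCPOBOP alone (3 arrays) and 42 weeks (7 arrays). For Cyp2b10 and Gstm3 the 3 groups lie close together, and for Gpc3, Igfbp1, Cyp2f2 and Hamp the 28-week group stays near the controls.

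Against 42 weeks Casp1 and Magea2, both picked after their values were seen, were among the genes that differed. Casp1, the protease that matures interleukin-1β, was at 8.53, 8.03 and 8.24 on the controls and 10.16, 11.24 and 11.84 after DENA plus TCPOBOP. It changed by 2.86 ± 0.24 there and by 4.18 after 42 weeks, a difference of -1.32 (adjusted p = 0.00292). Magea2, a cancer-testis gene on the X chromosome that was detected on no control, differed by -2.51 (adjusted p = 0.0170), with means of 6.08 after DENA plus TCPOBOP and 8.59 after 42 weeks. Since no call against 42 weeks was left with slide as a fixed block, these differences rest on the fit without it.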

How the data were processed

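RNA from microdissected liver samples was labelled as biotin cRNA and hybridised to Illumina mouse bead arrays with 45281 probes, per the labels' protocols, and read out with BeadStudio 3.0.19.0, per the submitters' processing notes. The authors deposited a non-normalized table of probe intensity on a linear scale with a detection p-value per probe and array, and a normalized table whose method is not given in the sources used here. The non-normalized intensities were used, since their values are all above 0 and show no subtracted background. Sample titles gave the groups and replicate numbers, and array positions gave the slides.

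Background was corrected on all 22 arrays with the normexp model of limma 3.58.1 in R 4.3.3, its negative controls inferred from the deposited detection p-values, with an offset of 16. Quantile normalization and log2 followed. Probes detected on at least 3 of the 12 arrays were kept (20688, of which 17523 had 1 gene symbol). The platform annotation names 1 gene for 34885 probes, several for 18 and none for 10378. The brightest kept probe stood for a gene, and 4334 of the 11131 genes had more than 1. Of the 1385 called genes with more than 1 probe, 14 had a called probe of opposite sign. All 4 groups were fitted together with lmFit and eBayes, and p-values adjusted by the Benjamini-Hochberg method over all genes. Where a gene was detected on no array of a group, the fold is a bound against, on each array, the higher of the lowest detected signal and the gene's own. The number of arrays limits the precision. The fit was tested on simulated data with known changes.

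The members, the 44 gene lists and the tests were chosen with earlier results of these data known, and lists are described by counts and medians without a test. The rule for named genes takes the 12 largest rises and 12 largest falls among called genes free of overlap between the groups (without unnamed loci and without genes whose called probes disagree), the 6 called genes with the largest SD among the 9 arrays, up to 5 members of each list (largest change among called members, otherwise smallest p), up to 8 genes detected in 1 group only in each direction, and a short fixed set with Ctnnb1, Axin2, Glul, Gpc3, Afp, Cdkn1a and Hamp. Defining cell type markers were fixed as well. The text names a part of these, favouring calls that held when arrays were left out. Of 127 called genes named, 6 are no longer called with one or other array omitted. Promoters are from RefSeq on GRCm38.p6, where 24 of the 28 measured NRF2 list members had a window. Alternatives changed a single choice each, with exceptions. The deposited normalized values changed background correction and normalization. Slides 3 and 4 alone changed the arrays and the slide block, and the 12 arrays alone changed normalization and the arrays fitted. Varied were the input (the deposited normalized values), background correction, normalization, probe filter and probe summary. Slide or replicate number as a block, array weights, moderation, the arrays fitted and each array left out were varied as well. Left-out arrays and slides 3 and 4 alone were partly added after seeing the data. Python 3.11.15 with pandas 2.3.3, numpy 2.4.6, scipy 1.17.1 and matplotlib 3.10.9 summarised and drew the values.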

Additional observations from a re-analysis of the deposited data

Results flagged for a closer look

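For 24 of 194 values tested, the highest or the lowest of the 9 DENA plus TCPOBOP arrays stood further from its neighbour than the 95% limit of Dixon's test allows. Chance alone flags about 1 in 20 independent groups that were not selected. The values here were not independent, and some genes were named for their spread among the same 9 arrays. The count of 24 can therefore not be set against that rate. Most of the lone arrays were replicate 6 or replicate 2.

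Replicate 6 was the lone array on the first principal component, at -4.41. It was lowest for the CAR targets Abcc4 (11.38) and Cyp1a2 (14.31), for Cyp2e1 (14.37), for the β-catenin targets Axin2 (5.58) and Slc13a3 (11.05), and for Sidt1 (10.19). It was highest for Dct (6.19), Lrtm1 (6.17) and Il6ra (8.07), genes that fell on all 9 arrays and further on the others. Its mean level was the lowest for the pericentral list (11.40) and the highest for the female-biased list (9.14). For each of these genes except Cyp2e1 and Axin2 the other 8 arrays lay further from the mean of the controls than replicate 6 did.

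Replicate 2 was highest for Atf3 (13.19), Gadd45b (11.75), Ier3 (12.10) and Klf6 (14.07), and lowest for Amdhd1 (7.73). Its mean level stood highest for the immediate early genes (9.50), the Ras-MAPK feedback genes (9.08) and the genes of the unfolded protein response (10.61). For the DNA repair genes its mean level was 6.97. Replicate 8 was the lone array for Ntrk2 (9.82), for Sult2a8 (7.10) and for the mean level of the gluconeogenesis list (8.70). The part of sample handling, of tissue sampled or of array in these lone values was not tested.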

How the results depend on the processing

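None of the 127 named genes called against controls changed sign under any alternative run. Of the other 21, all small changes that were not called, 8 took the other sign under some (Adgre1, Ahsg, Apoa1, Cyp2e1, Notum, Tbx3, Ttr and Xist). Of the 127 named genes called against controls, 119 kept the call under every alternative run. The other 8 were Alb, Cdkn1a, Col1a1, Cyp7a1, Gclm, Mdm2, Myc and Nr1i3. Named genes were picked partly for calls that held, so this share does not carry over to all called genes. Of all 3192 calls, 69.7% to 71.7% were kept with 1 control left out. On slides 3 and 4 alone 62.6% were kept. The number of genes called was 3192 and lay between 2269 and 3347 with 1 of the 12 arrays left out, lowest without control replicate 3. It was 2122 on slides 3 and 4 alone with slide as a block, an alternative chosen after seeing the data that changes both the arrays and the model, and 4491 with array weights. Genes called higher numbered 1471, and 1046 to 1559 with 1 array left out, 968 under median scaling and 964 on slides 3 and 4 alone. Median scaling moved the median change of all genes from -0.02 to -0.06. Genes called lower ranged from 1219 to 1788 and the called members of all lists, 364 in the main analysis, from 280 to 383 with 1 array left out. Many list counts, small and large, moved with single arrays. Mitotic genes called higher went from 18 to 10 without control replicate 2, and bile acid genes called lower from 8 to 3 without control replicate 3. The difference in the share of probes detected ran from -0.53 to 1.05 percentage points with 1 array left out.

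Genes called against 28 weeks of TCPOBOP alone numbered 1544, 2848 with array weights, and 672 to 1864 with 1 array left out, lowest without replicate 1 of the 28-week group. Against 42 weeks the count of 205 became 18 under median scaling, 0 with slide as a fixed block and 121 with slide as a random block. With 1 array left out it ran from 90, without replicate 1 of the 42-week group, to 566, without its replicate 3. The cause of these moves was not tested.

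With the replicate number as a block 2634 genes were called against controls, 1243 higher and 1391 lower. Arrays with the same number did not deviate together: over genes, the correlation of their deviations from the group means was 0.10 for number 1, -0.14 for number 2 and 0.02 for number 3, so the numbers were not read as pairs. With the block 5 named genes lost and 2 gained a call.

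Sizes depended on the background correction. Without it, and equally in the deposited normalized values, 69 of the 127 folds were smaller by over 1.5 times. With the mean over a gene's probes 12 were smaller (Bglap, C9, Cdc20, Cdk1, Egfr, Gadd45b, Il6ra, Ntrk2, Ptpn14, Sdcbp2, Slc12a1 and Sult5a1) and 2 larger (Cyp2b10 and Gsta1).

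The scale's top compresses the changes of the brightest genes, such as Cyp2b10, Pnliprp1, Orm2, Cyp1a2, Cyp2e1, Apoa1, Ttr and Ahsg. Signals near the limit of detection, such as Krt7, show no order.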
